A study of Mus musculus with 6 samples.

Results

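The Notch receptors Notch1 and Notch2, the ligands Dll1, Dll3 and Jag1, the effector genes Hes1, Hes5 and Hey1, and the progenitor transcription factor gene Sox2 were examined in RNA sequencing libraries from mouse cerebral cortex. These 9 genes were chosen by name, with earlier results of these data known. They were matched by symbol among the 53379 gene identifiers in the count files, and each symbol matched 1 identifier. There were 6 libraries from mice aged 2 months and labelled as strain C57BL/6, of which 3 carried the genotype label wild type (replicates 1, 3 and 4) and 3 the label GTF2ird1-/- (replicates 5, 6 and 7). Gtf2ird1 encodes a transcription factor from the chromosome region deleted in Williams syndrome. The series title names the material as Gad2+ neurons. How these cells were obtained, how the mutant allele was made, which part of the gene it removes, the sex of the mice and whether each library came from its own animal are facts that the sources used here leave out. P-values therefore measure the spread between these libraries, which may be partly technical.

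In Notch signalling a ligand on one cell (Delta-like or Jagged) binds a Notch receptor on its neighbour, and proteases then release the receptor's intracellular part. That part enters the nucleus, joins the DNA-binding protein Rbpj and a Mastermind protein, and switches on genes of the Hes and Hey families, which encode basic helix-loop-helix repressors. In the developing brain these repressors hold back neuronal differentiation, and Sox2 keeps neural progenitors in their state. In the adult brain Hes5 and Sox2 transcripts are known from astrocytes and from stem cells, and Notch1 and Notch2 are used by many cell types, vessels and glia included.

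Total gene counts ranged from 13627501 to 30544144 per library, so that 3 counts, the number a count of 0 allows, stood for 0.0982 to 0.22 CPM (counts scaled to library size, with TMM factors in all values below). Reads that the counting matched to no feature made up 40.0% to 51.2% of reads in wild type replicate 1 and the libraries labelled knockout. They made up 57.6% and 58.2% in wild type replicates 3 and 4. Genes for ribosomal RNA held 17.5% of the total in wild type replicate 3, and 6.2% in replicate 6 of the knockout label, against at most 1.51% in the others. Reads that the counting called ambiguous made up 14.5% and 8.63% of reads in these 2 libraries, and 1.94% to 2.69% in the others. For Gtf2ird1 itself the wild type mean was 35.9 ± 15.1 CPM and the mean under the knockout label 46.4 ± 4.99 CPM (SD over n = 3 in each group; adjusted p = 0.703 by edgeR). A count over the whole gene does not check the labels where the mutated part is unknown. The summed level of 12 microglia markers was 27900 to 45200 CPM, and that of 10 markers of GABAergic neurons, Gad1 and Gad2 among them, was 234 to 1010 CPM. The microglia sum exceeded the GABAergic sum in every library. In such bulk libraries fewer cells of a type and less RNA per cell cannot be told apart.

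RefSeq promoter windows on GRCm38.p6 were at hand for 7 of the 9 genes, and they were searched over the 250 bases before the start site. Hes1 and Hey1 had none. The core of the Rbpj binding motif, TGGGAA, was searched on both strands, where its matches cannot overlap one another. It was found in the Hes5 window alone among the 8 windows of these 7 genes, and there it occurred 2 times. Of all 32851 windows of that length, 21.6% held it at least once and 2.77% held it 2 or more times. The Hes5 sequence is shown because Hes5 had the largest fold change of the 9 genes, and the Sox2 sequence because it is the other window among the 3 genes with the smallest p-values. Capitals mark TGGGAA or, for a match on the other strand, TTCCCA.
Hes5, chr4:154960673-154960922, plus strand: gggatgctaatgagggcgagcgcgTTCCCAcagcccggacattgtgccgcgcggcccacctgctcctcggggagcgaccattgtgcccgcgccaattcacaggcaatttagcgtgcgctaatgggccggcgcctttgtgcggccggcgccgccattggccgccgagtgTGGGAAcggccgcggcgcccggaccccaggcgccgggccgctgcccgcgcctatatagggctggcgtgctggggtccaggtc
Sox2, chr3:34649745-34649994, plus strand: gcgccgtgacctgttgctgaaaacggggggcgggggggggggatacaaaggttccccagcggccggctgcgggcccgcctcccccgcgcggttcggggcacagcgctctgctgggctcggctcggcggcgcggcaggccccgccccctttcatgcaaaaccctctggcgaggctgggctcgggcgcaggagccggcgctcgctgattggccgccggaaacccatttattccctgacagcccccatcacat
In Hes5 the matches lay 226 to 221 and 82 to 77 bases before the start site, on opposite strands. The N-box CACNAG, a motif that Hes proteins bind, had 1 match each in the Notch1 and Notch2 windows and was present in 36.7% of all windows. A match is a match of letters only, and no binding was measured here.

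The comparison asked how these transcripts differed between cortical libraries of the 2 genotypes. None of the 9 genes passed the threshold of an adjusted p of 0.05 by edgeR, where 0.00581% of the 17221 tested genes were called (1 gene). An unadjusted p under 0.05 by edgeR was found for 3 of the 9: Hes5, Hey1 and Sox2. All 3 had higher means in the libraries labelled knockout, and 4.48% of all tested genes had such a p in that direction. The 9 genes and the lists below were chosen with earlier results of these data known. Such shares are therefore a description and no test of these genes as a set. DESeq2 called 0 of the 9 as well, where it called 0.122% of all genes. The log2 fold changes of the 9 genes (libraries labelled knockout over wild type) had a median of 0.28, with 6 of 9 positive, beside a median of -0.03 and 46.3% positive over all tested genes. Leaving out 1 library moved the median of the 9 between 0.14 (wild type replicate 3 out) and 0.67 (wild type replicate 4 out), and the number of positive values between 5 and 7. All 9 genes passed the filter on low counts.

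**Figure D1:**
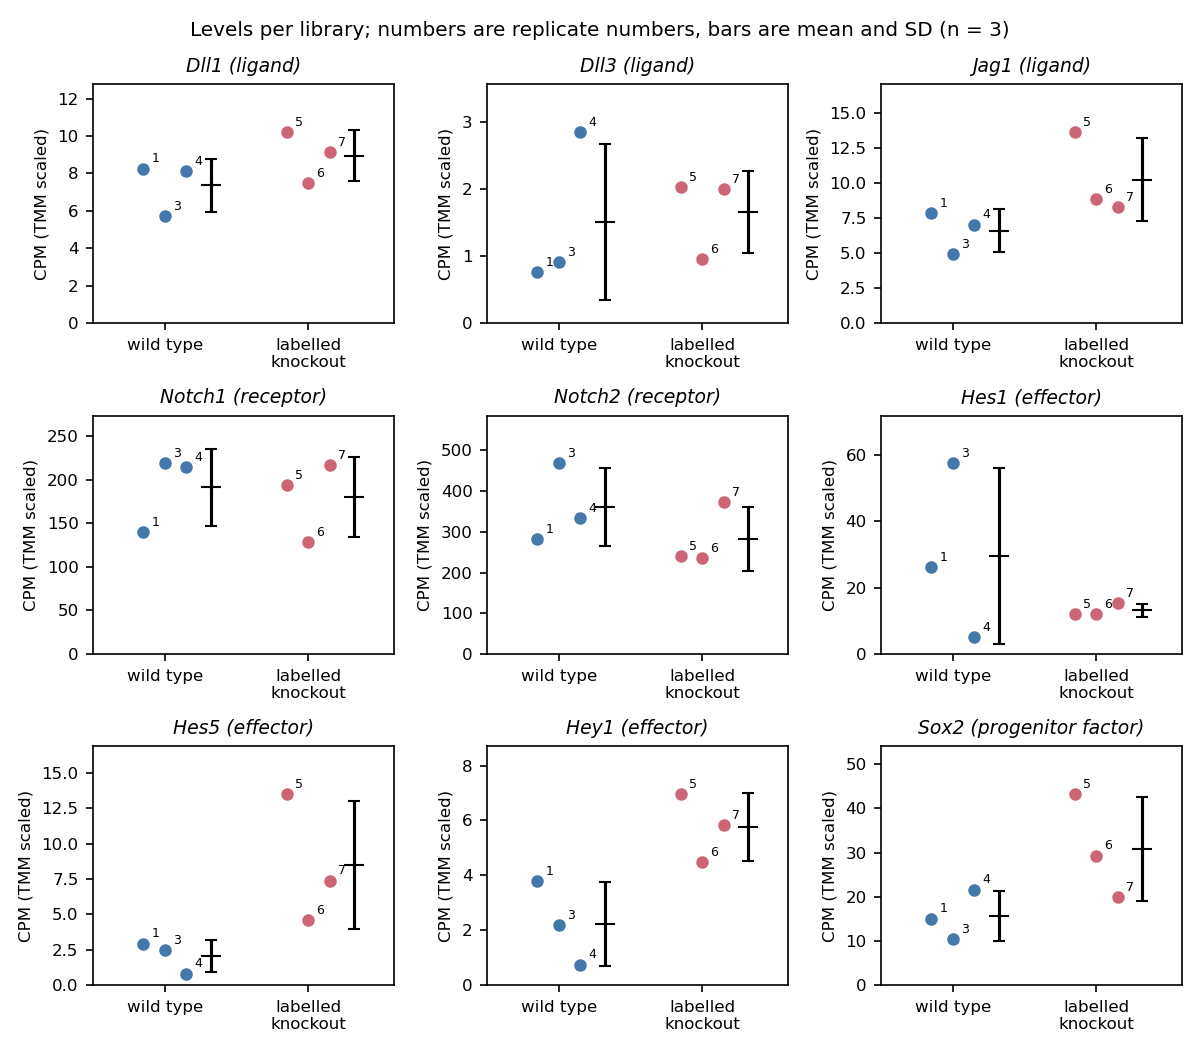
CPM after TMM scaling (vertical axes, each starting at 0) of the 9 genes in the 3 wild type and the 3 knockout-labelled libraries. Points are libraries with their replicate numbers, and bars are the mean and SD of a group; the groups do not overlap for Jag1, Hes5 and Hey1.

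Dll1 encodes a canonical ligand and lies on chromosome 17 (15367354 to 15376872, minus strand, GRCm38). Wild type replicates 1, 3 and 4 stood at 8.25, 5.71 and 8.10 CPM, and replicates 5, 6 and 7 of the knockout label at 10.2, 7.49 and 9.12 CPM. The values of the other genes are given for the libraries in this sequence. The lowest value was in wild type replicate 3 and the groups overlapped. The log2 fold change was 0.28 (SE 0.25, adjusted p = 0.738 by edgeR), and between 0.14 and 0.40 with 1 library left out, lowest without wild type replicate 3. Exons of the lincRNA A930024N18Rik on the opposite strand cover 20.5% of the exon bases of Dll1. Without the strand setting of the counting, reads of the pair cannot be told apart.

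Dll3 encodes a divergent ligand that acts on Notch inside the same cell, and lies on chromosome 7 (28293553 to 28302238, minus strand). Its mean over the 6 libraries was the lowest of the 9, although Hes5 and Hey1 were lower in wild type replicate 4. It had 0.766, 0.906 and 2.85 CPM among wild type libraries, and 2.03, 0.959 and 2.00 CPM among those labelled knockout. These levels rested on 10 to 64 counts per library. Wild type replicate 4 was the highest of all 6 and replicates 1 and 3 were the lowest, so the whole range fell inside wild type. The log2 fold change was 0.15 (SE 0.60, adjusted p = 0.94 by edgeR), and the 95% interval for the fold spanned 0.421 to 2.94. Leaving out wild type replicate 4 gave 1.03 (adjusted p = 0.324 by edgeR), and leaving out wild type replicate 1 gave -0.2.

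Jag1, on chromosome 2 (137081456 to 137116644, minus strand), encodes the Jagged ligand that vessels and astrocytes are known to carry. Its level was 7.83, 4.89 and 7.02 CPM among wild type libraries, and 13.6, 8.81 and 8.25 CPM among those labelled knockout. All 3 libraries labelled knockout lay above all 3 wild type libraries, by a margin of 8.25 against 7.83 CPM at the nearest pair. Full separation in this direction was seen for 6.34% of all tested genes, and for 3 of the 9 genes here. In the other direction it was 0 of the 9, against 6.68% of all genes. The group means were 6.58 ± 1.52 and 10.2 ± 2.95 CPM (SD, n = 3 in each group), which made a log2 fold change of 0.63 (SE 0.30, adjusted p = 0.637 by edgeR). With knockout replicate 5 left out it was 0.37.

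Notch1, on chromosome 2 (26457903 to 26516663, minus strand), encodes a receptor. It had 139.7, 219.1 and 215.0 CPM among wild type libraries, and 193.8, 128.5 and 217.2 CPM among those labelled knockout. Each group held 1 low and 2 high libraries, the low ones being wild type replicate 1 and knockout replicate 6. The means were 191 ± 44.7 and 180 ± 46.0 CPM (SD, n = 3 in each group), and the 95% interval for the fold spanned 0.626 to 1.41 (edgeR adjusted p = 0.919). Its log2 fold change of -0.09 had no stable sign: it was 0.07 with library totals alone and 0.11 without knockout replicate 6. Exons of 0610009E02Rik on the opposite strand cover 7.5% of its exon bases.

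Notch2, a second receptor, lies on chromosome 3 (98013527 to 98150361, plus strand). It was the most abundant of the 9, with 282.8, 468.3 and 334.4 CPM among wild type libraries, and 240.7, 234.6 and 371.9 CPM among those labelled knockout. Wild type replicate 3 was highest, and knockout replicate 7 lay within the wild type range. The means were 362 ± 95.8 and 282 ± 77.6 CPM (SD, n = 3 in each group), which made a log2 fold change of -0.36 (SE 0.26, adjusted p = 0.688 by edgeR). It was -0.12 with wild type replicate 3 left out, -0.59 with knockout replicate 7 left out and -0.18 by library totals alone. Exons of Gm42820 on the same strand cover 5.02% of the exon bases of Notch2.

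Hes1, on chromosome 16 (30064384 to 30067796, plus strand), encodes a repressor that Notch switches on and that other signals induce too. It had 26.1, 57.4 and 5.02 CPM among wild type libraries, and 12.04, 12.1 and 15.3 CPM among those labelled knockout. The highest and the lowest value were both in wild type, 11.4 times apart, while the libraries labelled knockout lay within 1.27 times of each other. The counts behind these values were 751, 634 and 88 in wild type and 308, 202 and 489 in the libraries labelled knockout. The log2 fold change was -1.16 (SE 0.70, adjusted p = 0.657 by edgeR). Leaving out wild type replicate 3 gave -0.25, leaving out wild type replicate 4 gave -1.65 (adjusted p = 0.143 by edgeR), and limma-voom gave -0.46.

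Hes5, the effector gene most closely tied to Notch in neural progenitors and the one whose promoter is printed above, lies on chromosome 4 (154960923 to 154962371, plus strand). It had 2.92, 2.45 and 0.799 CPM among wild type libraries, and 13.5, 4.61 and 7.37 CPM among those labelled knockout. Every library labelled knockout lay above every wild type library, with knockout replicate 5 highest and wild type replicate 4, at 14 counts, lowest. The means were 2.06 ± 1.12 and 8.49 ± 4.54 CPM (SD, n = 3 in each group). The log2 fold change was 2.04 ± 0.58 (SE), the largest of the 9 genes, with an unadjusted p of 0.00865 and an edgeR adjusted p of 0.637. The 95% interval for the fold spanned 1.62 to 10.5. Leaving out 1 library at a time moved the log2 value between 1.54 and 2.44, with a lowest adjusted p of 0.114, and DESeq2 gave an adjusted p of 0.12. The transcript Gm20421 on the other strand shares 31.8% of the exon bases of Hes5, and without the strand setting reads of the 2 cannot be told apart.

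Hey1, on chromosome 3 (8663359 to 8667256, minus strand), encodes a related repressor known from vessels and from glia. It had 3.79, 2.17 and 0.742 CPM among wild type libraries, and 6.96, 4.49 and 5.84 CPM among those labelled knockout. The groups did not overlap, and the order of the 6 libraries was the same as for Hes5. The means were 2.24 ± 1.53 and 5.77 ± 1.23 CPM (SD, n = 3 in each group). The log2 fold change was 1.35 ± 0.55 (SE), with an unadjusted p of 0.0419 and an edgeR adjusted p of 0.637. Without wild type replicate 1 it was 2.04 (edgeR adjusted p = 0.102), and without wild type replicate 4, which had 13 counts, it was 0.92.

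Sox2, a single-exon gene on chromosome 3 (34650405 to 34652461, plus strand) that lies inside the span of Sox2ot without sharing exon bases with it, encodes a factor of progenitors and astrocytes. It had 15.03, 10.4 and 21.6 CPM among wild type libraries, and 43.2, 29.3 and 20.0 CPM among those labelled knockout. Wild type replicate 4 lay above knockout replicate 7, so the groups overlapped. The means were 15.7 ± 5.60 and 30.8 ± 11.7 CPM (SD, n = 3 in each group), which made a log2 fold change of 0.97 ± 0.35 (SE) with an unadjusted p of 0.026 and an edgeR adjusted p of 0.637. Leaving out wild type replicate 4 gave 1.27 (adjusted p = 0.183 by edgeR), and leaving out knockout replicate 5 gave 0.65.

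**Figure D2:**
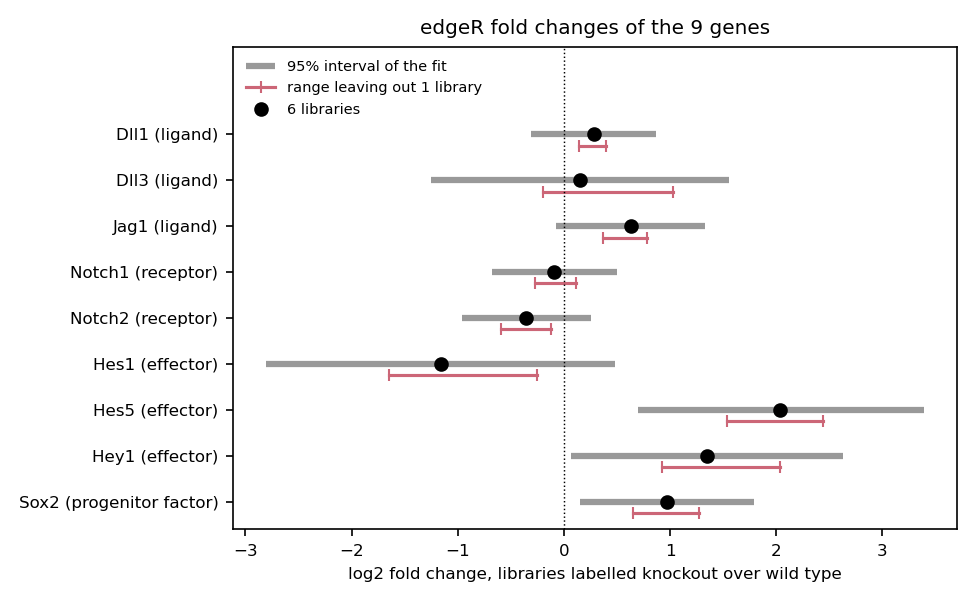
Log2 fold change (horizontal axis) of the 9 genes from edgeR, as points with their 95% interval in grey. The red line is the range over the 6 fits that each leave out 1 library: it crosses 0 for Dll3 and Notch1 and stays on one side of 0 for the other 7 genes, none of which passed the threshold in any of these fits.

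Per kb of merged exons, the scale on which different genes can be set side by side, Notch2 was first at a mean of 29.9 CPM per kb over the 6 libraries. It exceeded Notch1, at 13.04 CPM per kb, in 6 of 6 libraries. Notch1, Sox2 (11.3 CPM per kb) and Hes1 (10.5 CPM per kb) were not separated by their spread, since Notch1 exceeded Sox2 in 4 of 6 libraries and Sox2 exceeded Hes1 in 4 of 6. Hes5 followed at 3.87 CPM per kb, then Dll1 at 1.93, Jag1 at 1.44, Hey1 at 1.23 and Dll3 at 0.557 CPM per kb. Dll1 exceeded Jag1 in 6 of 6 libraries, and each other neighbouring pair from Hes1 downward kept its order in 5 of 6. This order pools the genotypes and differs within them. In wild type the mean of Hes5, 1.51 CPM per kb, was below that of Dll1, 1.74, and Hes1 at 14.5 was above Notch1 at 13.4 and Sox2 at 7.62 CPM per kb. Under the knockout label Hes5 was at 6.23 against 2.12 CPM per kb for Dll1, Sox2 at 14.98 was above Notch1 at 12.6 and Hes1 at 6.45, and Hey1 and Jag1 were at 1.77 and 1.75 CPM per kb. Notch1 and Notch2 stood above the 3 ligands Dll1, Dll3 and Jag1 in every library by this measure. Their lowest value was 9.03 CPM per kb, and the highest value of these ligands was 2.42 CPM per kb. This does not hold for all receptors and ligands: Notch3 and Notch4 had means of 1.16 and 2.92 CPM per kb, and the ligand Dner of 4.665 CPM per kb.

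The pathway lists held 95 genes in 9 roles, and 86 of these are not among the 9 genes above. Of the 86, 80 were tested and 0 passed by edgeR, 44 with positive and 36 with negative log2 fold changes and a median of 0.06. An unadjusted p under 0.05 was found for 17 higher and 3 lower, against 4.48% and 2.77% of all tested genes. The groups did not overlap for 13 of the 80 higher and 6 lower, against 6.34% and 6.68% of all tested genes. DESeq2 called 0 of them.

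Among the other ligands, Dner, a ligand of neurons, had means of 12.9 ± 7.91 CPM (wild type) and 31.8 ± 13.2 CPM (knockout label; SD, n = 3 in each group), which made a log2 fold change of 1.29 (SE 0.46, adjusted p = 0.637 by edgeR). Dll4, a ligand of vessels, had a log2 fold change of 0.95, and Dlk2 of 0.90, with an edgeR adjusted p of 0.637 and 0.715. The Dlk2 value rested on single libraries: it was 2.51 when wild type replicate 1 was left out, and 0.52 and 0.53 when replicate 3 or 4 was. Of the other receptors, Notch3, known from mural cells and astrocytes, had 8.56, 3.35 and 2.11 CPM among wild type libraries, and 17.4, 10.9 and 14.0 CPM among those labelled knockout, without overlap (log2 fold change 1.57 ± 0.50, SE; edgeR adjusted p = 0.637). Such separation as higher was seen for 6.34% of all tested genes. Notch4 had a log2 fold change of -0.29 (edgeR adjusted p = 0.862). Its sign was not stable: the value was 0.11 when wild type replicate 4 was left out and 0.07 when knockout replicate 6 was. Neither of these receptors passed.

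Of the enzymes that add sugars to Notch, 4 of 5 had negative log2 fold changes, with a median of -0.27. Mfng and Pofut1 had log2 fold changes of -0.40 ± 0.14 and -0.32 ± 0.14 (SE; adjusted p each = 0.637 by edgeR). In both, all libraries labelled knockout lay below wild type, as they did for 6.68% of all tested genes. Rfng had -0.27. The cleavage genes, proteases such as Adam10 and the subunits of gamma-secretase, had 8 of 10 negative values and a median of -0.19. Ncstn and Aph1b, subunits of gamma-secretase, had log2 fold changes of -0.33 and 0.69. The genes for endocytosis and turnover had a median of -0.05 over 12 tested, among them Dtx4 at -0.40, Neurl1b at 0.72 and Dtx1 at 0.87. The lowest edgeR adjusted p in these 3 lists was 0.637. Scaling by library totals alone, which moves the median of all genes by 0.14, gave medians of -0.14, -0.05 and 0.09 for the 3 lists, so the last of them turned its sign.

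The nuclear complex had the narrowest range of the 9 lists. Its 9 genes had log2 fold changes between -0.33 and 0.07 with a median of -0.19 (-0.04 by library totals alone). Rbpj, the DNA-binding partner of all Notch receptors, had 88.6, 95.7 and 101.7 CPM among wild type libraries, and 76.9, 90.6 and 90.2 CPM among those labelled knockout (log2 fold change -0.15 ± 0.13, SE; edgeR adjusted p = 0.726). Its 95% interval for the fold spanned 0.732 to 1.11. The coactivator genes Maml3 and Maml2 had -0.33 and -0.19. The 11 corepressors had a median of -0.07 (0.08 by library totals alone), with Tle3 at -0.46, Tle1 at 0.60 and Ctbp2 at -0.23. Whether the pathway's core differed from its effectors was not tested.

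Among the other effectors, Hey2 and Heyl, known from vessels and mural cells, had log2 fold changes of 2.03 ± 0.70 and 1.77 ± 0.70 (SE; adjusted p each = 0.637 by edgeR). Their groups did not overlap, as was so for 6.34% of all tested genes in that direction. Their levels were low, at most 2.85 CPM for Hey2 and 1.76 CPM for Heyl, both under the knockout label. Wild type replicates 3 and 4 held 3 and 2 counts of Hey2, and 2 and 2 of Heyl. These are no more than the 3 counts that a count of 0 allows. When wild type replicate 1 is left out, replicates 3 and 4 are the whole wild type group. Hes7 had -0.53, and Hes2 and Hes3 did not pass the filter on low counts. The progenitor list had positive values for all 22 tested genes beside Sox2, with a median of 0.86. Its smallest p-values belonged to Gli2, an effector of Hedgehog signalling, Sox21, a relative of Sox2, and Lhx2, a LIM homeobox factor, at 1.76 ± 0.50, 1.45 ± 0.42 and 1.30 ± 0.41 (SE; adjusted p each = 0.637 by edgeR). An unadjusted p under 0.05 was found for 11 of the 22, all higher, against 4.48% of all tested genes in that direction. This list, too, was chosen with earlier results of these data known. Without wild type replicate 1, 5 pathway genes passed as higher by edgeR, where 1.77% of all tested genes did: Notch3, Hey2, Heyl, Fabp7 and Gli3, the last 2 named after their values were seen. Of the 9 genes 0 passed in that setting, where 1.85% of all genes passed in either direction. In the same setting 9 of the 12 astrocyte markers passed as higher. So did 5 of 10 oligodendrocyte, 3 of 6 perivascular macrophage and 2 of 11 endothelial and mural markers. The oligodendrocyte precursor and pan-neuron lists had 1 of 8 and 1 of 7, and the remaining marker lists had 0. The summed astrocyte markers were 317 to 3600 CPM in wild type and 3570 to 6460 CPM under the knockout label, and their part in the progenitor and effector values was not tested.

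**Figure D3:**
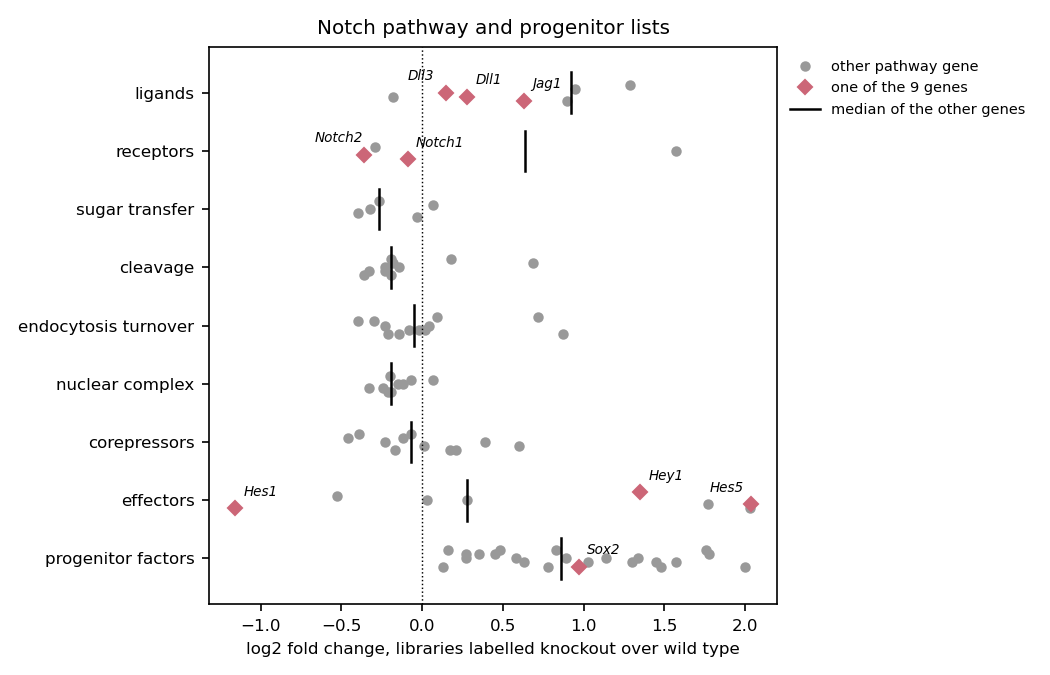
Log2 fold change (horizontal axis) of the tested genes of each pathway list (rows). Red diamonds are the 9 genes, grey points the other genes, and black bars the medians of the other genes, which run from -0.27 for sugar transfer to 0.92 for the other ligands.

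The profiles of the 9 genes over the libraries fell beside different marker lists. The 12 astrocyte markers summed to 3600, 612 and 317 CPM among wild type libraries, and to 6460, 3570 and 4030 CPM among those labelled knockout. Slc1a2 alone held 2514, 240.6 and 123.7 CPM of these sums in wild type, and 4020, 2447 and 2549 CPM under the knockout label. Values set against the sum therefore lean on that gene. None of the 12 passed, 12 of 12 lay above 0 on the log2 scale (median 1.81), and no marker of this list was at 0 in any library. Taken singly, 9 of the 12 were higher without overlap, against 6.34% of all tested genes. An unadjusted p under 0.05 by edgeR was found for 6, all higher, against 4.48%. Like the astrocyte sum, Hes5 and Hey1 had wild type replicate 4 lowest, replicate 3 next, and knockout replicate 5 highest. This order is not particular to astrocyte markers: the endothelial and mural sum given below had the same libraries lowest, next and highest. The sum of 10 oligodendrocyte markers was also lowest in wild type replicates 4 and 3, at 168 and 552 CPM, but highest in knockout replicate 7, at 2450 CPM. Set against 1000 CPM of summed astrocyte markers, Hes5 was at 0.812, 4.0 and 2.52 CPM among wild type libraries, and 2.09, 1.29 and 1.83 CPM among those labelled knockout, and the groups overlapped. Hey1 was at 1.05, 3.55 and 2.34 CPM against 1.08, 1.26 and 1.45 CPM by that measure, also with overlap. Dll1 and Hes1 were lower under the knockout label by that measure, without overlap. The part that astrocyte transcripts have in the Hes5 and Hey1 values was not tested.

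Endothelial and mural markers summed to 176, 109 and 67.7 CPM among wild type libraries, and 241, 164 and 212 CPM among those labelled knockout, with 10 of 11 tested markers positive. Per 1000 CPM of this sum Hes5 was 11.8 to 22.4 CPM among wild type libraries, and 28.1 to 56.1 CPM among those labelled knockout, without overlap. Hey1 was 11.0 to 21.5 and 27.4 to 28.9 CPM by the same measure. Dll1 and Hes1 went the other way by it, lower under the knockout label without overlap. Per 1000 CPM of the microglia sum, Hes5 and Hey1 were also higher under the knockout label without overlap. How often other genes separate after such scaling was not computed. Kcnj8 of the endothelial and mural list was at 0 in wild type replicate 3. Whether vessels have a part in the Hey1 values was not tested.

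Sox2 and Dll3 were placed differently. Neuroblast markers, with Dcx and Sox11 among them, summed to 354, 418 and 1690 CPM among wild type libraries, and 1440, 1090 and 759 CPM among those labelled knockout, and GABAergic markers to 332, 234 and 779 CPM and to 1010, 631 and 547 CPM. Wild type replicate 4 was the highest wild type library in both sums, and in Sox2 and Dll3. This is not particular to these 2 lists: it was also the highest wild type library in the proliferation and pan-neuron sums, at 244 and 700 CPM. The proliferation sum had the order of the 6 libraries seen for Sox2. Per 1000 CPM of GABAergic markers Sox2 was 45.3, 44.5 and 27.7 CPM among wild type libraries, and 42.9, 46.5 and 36.5 CPM among those labelled knockout. Per 1000 CPM of neuroblast markers Sox2 ran from 12.8 to 42.4 CPM, lowest in wild type replicate 4. The groups overlapped by both measures. For oligodendrocyte precursors, which are known to express Dll3 and Sox2, the 8 markers summed to 184, 11.5 and 88.4 CPM among wild type libraries, and 311, 249 and 149 CPM among those labelled knockout. Per 1000 CPM of that sum Sox2 ran from 81.5 to 905.5 CPM, highest in wild type replicate 3, again with overlap. The part of these cells in the Sox2 and Dll3 values was not tested.

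Notch1 and Notch2 had other profiles. Notch2 had its highest level in wild type replicate 3, where astrocyte, precursor and vascular sums were at or near their lowest. The microglia sum was 45200, 43700 and 27900 CPM among wild type libraries, and 29000, 36100 and 33100 CPM among those labelled knockout, with 0 of 12 markers called and all 12 log2 fold changes negative. Per 1000 CPM of that sum Notch2 was 6.25, 10.7 and 11.97 CPM among wild type libraries, and 8.30, 6.49 and 11.2 CPM among those labelled knockout, and the groups overlapped.

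**Figure D4:**
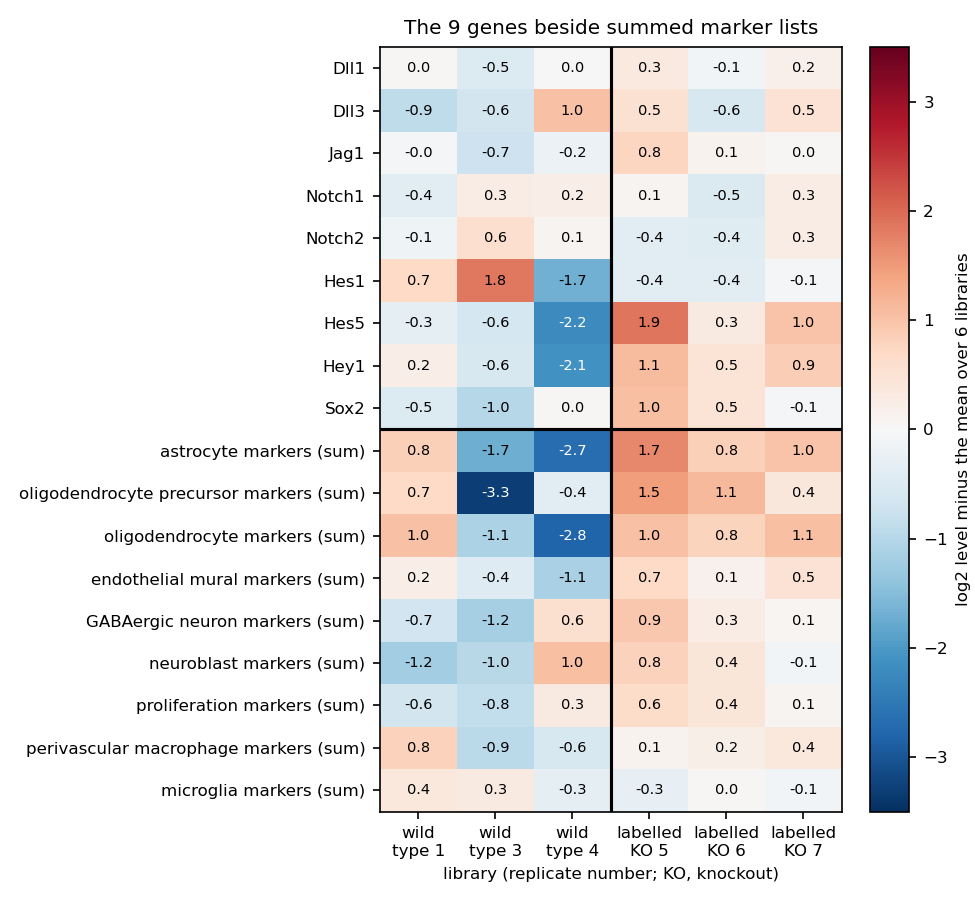
Log2 level minus its mean over the 6 libraries (colour and printed value) for the 9 genes (upper rows) and for summed CPM of marker lists (lower rows), with libraries in columns. Hes5 and Hey1 are lowest in wild type replicate 4, at -2.22 and -2.12. So are the astrocyte, oligodendrocyte, endothelial and mural, and microglia sums, at -2.66, -2.81, -1.14 and -0.34. Hes1 is highest in wild type replicate 3 at 1.84.

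Genes with the most similar profiles were sought among 10769 or 10770 protein-coding genes with a mean of at least 5 CPM, by Pearson's r of log2(CPM + 1) over the 6 libraries, and the 3 closest of each had an r between 0.978 and 0.998. This is a description only, since between 58 and 509 genes had an r over 0.9 with each of the 9. Closest to Hes5 were Garem1, Gas1 and Frem2, to Hey1 Kctd6, Hgf and Rgs7, and to Hes1 Sun2, Vgll4 and Tmem19. Closest to Sox2 were Pard6g, Fabp5 and Amotl2. For the ligands they were Mtss1l, Eml2 and Rtkn for Dll1, Dctn1, Mical3 and Mtmr4 for Dll3, and E2f6, Bri3bp and Capn2 for Jag1. For the receptors they were Rusc2, Zfp516 and Rftn1 for Notch1, and Elmsan1, Nfic and St5 for Notch2. No gene was among the 3 closest of more than 1 of the 9. Gas1, for example, had 4.59, 3.35 and 2.23 CPM among wild type libraries, and 13.3, 5.99 and 7.997 CPM among those labelled knockout, the order seen for Hes5.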

How the data were processed

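The authors deposited, for each library, unnormalized read counts by gene. Per the submitters' processing notes, Trim Galore 0.60, STAR 2.7, HTSeq 1.31 and the build mm10 were used; the annotation release and the strand setting were not stated. The last 5 lines of each file name no gene and were left out of totals and tests. Identifiers were matched without version to GENCODE M21 (GRCm38, the same assembly as mm10), 53274 of 53379 in all.

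Genotypes were compared in R 4.3.3 by quasi-likelihood F-tests (edgeR version 4.0.16, TMM scaling, default filter by group, robust shrinkage), two-sided, with Benjamini-Hochberg adjustment over 17221 tested genes and a threshold of 0.05. The fit was tested on simulated data. Standard errors derive from the F statistic. CPM are TMM scaled. Libraries of 1 group differed beyond sampling noise (lowest chi-square per degree of freedom 49.8), so each counted as 1 sample. Tle5 was found under its older symbol. Dlx6os1 names more than 1 identifier, of which 1 was used.

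The 9 genes and the lists were chosen with earlier results of these data known. Named were all 9 genes, up to 3 further genes per pathway list by smallest p, and the 3 most similar profiles per gene. One gene that this rule names is not reported here. Alternatives were other scalings, filters, DESeq2 1.42.0, limma-voom from limma 3.58.1 and leaving out each library.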

Additional observations from a re-analysis of the deposited data

How the results depend on the processing

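Of 135 fold changes (9 genes under 15 alternatives), 128 kept their direction and stayed on the same side of the threshold, and 7 changed sign, none of them past the threshold. Dll3 was -0.2, -0.07 and -0.01 on the log2 scale when wild type replicate 1, wild type replicate 3 or knockout replicate 5 was left out. Leaving out 1 library moved Dll3 between -0.2 and 1.03, and Notch1 between -0.27 and 0.11. Notch1 was 0.07 with library totals alone, and 0.03, 0.01 and 0.11 without wild type replicate 3, wild type replicate 4 and knockout replicate 6. The number of the 9 genes called was 0 in every alternative. For the other pathway genes it was 0, except for 5 without wild type replicate 1, so that it ran from 0 to 5 when 1 library was left out. Over all genes, calls numbered 1 in the 6 libraries, 21 with DESeq2 (347 genes had no adjusted p) and 5 without the filter on low counts, and from 1 to 321 when 1 library was left out. Scaling by library totals alone moved the median of all genes by 0.14. The cause of these changes was not tested. No paired analysis was possible because the groups share no replicate numbers. The genes with few counts limit what can be seen: Dll3 had 10 counts in wild type replicate 3, Hey1 13 and Hes5 14 in wild type replicate 4. Among the other pathway genes, Hey2 had 3 and 2 counts in wild type replicates 3 and 4, and Heyl 2 in each.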

Other observations

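The balance between Hes1 and Hes5, both Notch effectors, was looked at within each library after their values were seen, so it is a description with no test. Per kilobase, Hes1 was 5.98, 15.7 and 4.21 times the level of Hes5 in wild type replicates 1, 3 and 4, and 0.597, 1.76 and 1.39 times its level in knockout replicates 5, 6 and 7. The ranges, 4.21 to 15.7 and 0.597 to 1.76, do not overlap. Hes1 alone overlapped between the groups. Hes5 alone did not, at most 2.92 CPM in wild type and at least 4.61 CPM under the knockout label, so the ratio partly repeats that separation. How often ratios of other gene pairs separate was not computed. The Hes1 to Hes5 ratio does not depend on the scaling of the libraries. It rests on 14 counts of Hes5 in wild type replicate 4 and 27 in wild type replicate 3. Gm20421 on the other strand shares 31.8% of the exon bases of Hes5. By the same kind of ratio Hey1 stood at 0.371 to 0.542 of Hes5 in wild type and 0.215 to 0.407 in the libraries labelled knockout. Notch2 stood at 2.05 to 2.82 and 1.64 to 2.41 times Notch1, and Sox2 at 2.82 to 17.9 and 1.79 to 4.21 times Hes5. Dll3 stood at 0.137 to 0.521 and 0.189 to 0.324 of Dll1. All of these ratios overlapped between the groups.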
